A study of Mus musculus with 24 samples.

Results

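A set of 5 genes with high levels under lard was followed through the epididymal white fat of 24 mice: Lipf, Tm4sf19, Slc5a7, Cdkl4 and Cd72. They are 5 of 19938 genes that could be named on the array, and they were picked by name because their levels were higher in lard-fed than in fish oil-fed mice. That diet difference is therefore described here and not tested, whereas bacterial status, the spread between mice of a group and the genes around these 5 were not used to pick them. The comparisons by bacterial status do share group means with the diet difference. Each of the 5 was measured by 1 probe set, so no choice between probe sets was needed.

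All mice were wild-type C57Bl/6 males, put at 11 weeks of age on diets of equal energy with 45% of it as fat and kept on them for 11 weeks. The 4 groups of 6 mice were conventional mice fed lard, germ-free mice fed lard, conventional mice fed menhaden fish oil and germ-free mice fed menhaden fish oil. Conventional mice carry bacteria and germ-free mice are raised without them. All 24 mice ate a high-fat diet, so no group shows fat on a low-fat diet, and the mice were fasted for 4 h before the tissue was taken.

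Each gene has a well-described home outside fat tissue or, in the case of Cdkl4, little described function at all. Lipf encodes gastric lipase, an acid lipase secreted in the upper digestive tract that starts the digestion of dietary triglyceride. Tm4sf19 encodes a 4-pass membrane protein of the L6 family and has been described in osteoclasts, the fused myeloid cells that resorb bone. Slc5a7 encodes the high-affinity choline transporter that supplies cholinergic nerve endings with choline for acetylcholine. Cdkl4 encodes a kinase of the cyclin-dependent kinase-like family. Cd72 encodes a C-type lectin receptor best known from B cells, which binds semaphorin 4D and carries an inhibitory motif that recruits the phosphatase SHP-1. Obese fat tissue is also known to gather macrophages that take up lipid, digest it in lysosomes and carry Trem2 and Cd9, and these lipid-associated macrophages were followed here beside the 5 genes.

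RNA was measured with a one-colour Affymetrix array that reads the whole transcript, from 250 ng of total RNA of each mouse. Values are log2 RMA signals, in which a difference of 1 is a doubling, and the medians of the 24 arrays lay between 7.09 and 7.20. These medians were 7.17 to 7.20 in germ-free mice fed fish oil and 7.09 to 7.18 in the other groups. A signal depends on its probes as well as on the RNA, so levels are compared between mice and not between genes. The adipocyte label of the tissue was checked in every group: the mean of 13 measured adipocyte markers lay between 12.48 and 13.15 over the 24 arrays. The mean of 17 liver transcripts averaged 9.23 in the germ-free mice on fish oil and 7.30 to 7.59 in the other 3 groups, and the mean of 14 intestinal transcripts reached 9.72 in 1 lard-fed germ-free mouse, where the median of its group was 6.26. Several results are therefore also given without the mice concerned or with the liver mean in the fit.

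The reference promoters of Lipf and Cd72 are shown because these genes come from the 2 closer pairs that are described further on, whose difference was not tested. Each window runs from 250 bases before to 50 bases after the RefSeq start site in GRCm38.p6 and is written 5′ to 3′ along the gene. The Lipf window is chr19:33960998-33961297 on the plus strand, and its capitals mark the letters TATATAA, one form of the core promoter element bound by TBP, which begin at base -32 from the start site. The Cd72 window is chr4:43454577-43454876 on the minus strand, and its capitals mark the letters GAGGAAG read on the opposite strand, the core bound by the myeloid and B-cell factor PU.1, which begin at base -48.
Lipf: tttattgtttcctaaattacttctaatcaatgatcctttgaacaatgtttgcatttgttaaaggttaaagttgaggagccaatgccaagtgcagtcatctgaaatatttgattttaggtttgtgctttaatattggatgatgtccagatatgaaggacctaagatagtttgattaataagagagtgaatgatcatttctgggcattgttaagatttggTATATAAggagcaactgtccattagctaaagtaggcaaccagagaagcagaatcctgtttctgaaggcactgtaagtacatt
Cd72: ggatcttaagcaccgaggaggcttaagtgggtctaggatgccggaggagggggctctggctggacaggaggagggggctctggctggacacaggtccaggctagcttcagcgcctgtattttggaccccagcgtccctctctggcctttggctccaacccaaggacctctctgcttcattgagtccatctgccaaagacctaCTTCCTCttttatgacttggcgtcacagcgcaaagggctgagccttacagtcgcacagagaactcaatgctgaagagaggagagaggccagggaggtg
On either strand, TATATAA occurs in 3.24% of 32851 promoter windows of the same length and GAGGAAG in 13.6% of them. These matches describe the letters of the windows and show no binding. A set of 10 short motifs were searched on both strands, namely both TATA-box forms (TATATAA as above and the shorter form TATAAA), the PU.1 core GAGGAAG, the cyclic AMP response element TGACGTCA, the E-box TCACGTG of the MiT family, the C/EBP palindrome TTGCGCAA, the nuclear receptor site AGGTCA, the AP-1 site TGANTCA, and longer motifs of NF-kB and of the interferon regulatory factors. None of the 10 was found in the window of Tm4sf19, TATAAA was found at base -187 of Slc5a7, and TATATAA was found in 1 of the 2 windows of Cdkl4.

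Lipf had the largest diet difference of the 5 genes under both bacterial states. Its level was 8.95, 10.03 and 10.54 (lowest, median and highest of 6 mice) in lard-fed conventional mice and 10.04, 10.47 and 10.53 in lard-fed germ-free mice. It was 5.49, 6.46 and 7.78 in fish oil-fed conventional mice and 7.19, 7.52 and 8.31 in fish oil-fed germ-free mice. All 12 lard-fed mice lay above all 12 fish oil-fed mice, and the lard-fed germ-free mice were the most alike, with an SD of 0.22 against 0.86 in fish oil-fed conventional mice. The mean was 3.27 higher with lard than with fish oil in conventional mice, a 9.66-fold difference that ranked 2 of all 19938 genes, and 2.68 higher in germ-free mice, a 6.41-fold difference that ranked 4.

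Tm4sf19 separated the diets within each bacterial state but not across them. It was at 9.91, 10.86 and 12.50 in lard-fed conventional mice and at 11.40, 11.94 and 12.59 in lard-fed germ-free mice. It was at 7.49, 8.45 and 9.56 in fish oil-fed conventional mice and at 10.02, 10.22 and 10.83 in fish oil-fed germ-free mice. The lowest lard-fed conventional mouse therefore lay below all 6 fish oil-fed germ-free mice. The lard-fed conventional group was uneven, since mice 5 and 6 had 12.33 and 12.50 and the other 4 had 9.91 to 10.93. The difference between lard and fish oil was 2.63 in conventional mice (6.17-fold) and 1.69 in germ-free mice (3.23-fold).

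Slc5a7 had its widest spread in fish oil-fed conventional mice. Its level was 9.75, 10.39 and 10.64 in lard-fed conventional mice and 10.29, 10.80 and 11.11 in lard-fed germ-free mice. It was 6.52, 7.87 and 9.86 in fish oil-fed conventional mice, with an SD of 1.26, and 7.69, 8.12 and 8.93 in fish oil-fed germ-free mice, with an SD of 0.50. Fish oil-fed conventional mouse 1, at 9.86, was the only fish oil-fed mouse to reach the lard-fed range, where the lowest mouse had 9.75. The difference between lard and fish oil was 2.32 in conventional mice (5.00-fold) and 2.50 in germ-free mice (5.66-fold).

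Cdkl4 had nearly the same diet difference under both bacterial states. It was at 8.05, 9.22 and 9.47 in lard-fed conventional mice and at 8.88, 9.28 and 9.75 in lard-fed germ-free mice. It was at 6.06, 6.71 and 7.16 in fish oil-fed conventional mice and at 6.20, 6.84 and 7.03 in fish oil-fed germ-free mice. The lowest lard-fed mouse, at 8.05, lay above the highest fish oil-fed mouse, at 7.16, and the groups within a diet overlapped. The difference between lard and fish oil was 2.39 in conventional mice (5.25-fold) and 2.53 in germ-free mice (5.77-fold).

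Cd72 repeated the uneven lard-fed conventional group of Tm4sf19. Its level was 8.96, 9.64 and 11.34 in lard-fed conventional mice and 9.60, 10.39 and 11.34 in lard-fed germ-free mice. It was 7.37, 7.44 and 8.26 in fish oil-fed conventional mice and 7.29, 8.21 and 8.85 in fish oil-fed germ-free mice. Mice 5 and 6 of the lard-fed conventional group had 11.18 and 11.34, whereas the other 4 had 8.96 to 9.90. The difference between lard and fish oil was 2.33 in conventional mice (5.03-fold) and 2.33 in germ-free mice (5.02-fold).

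**Figure D1:**
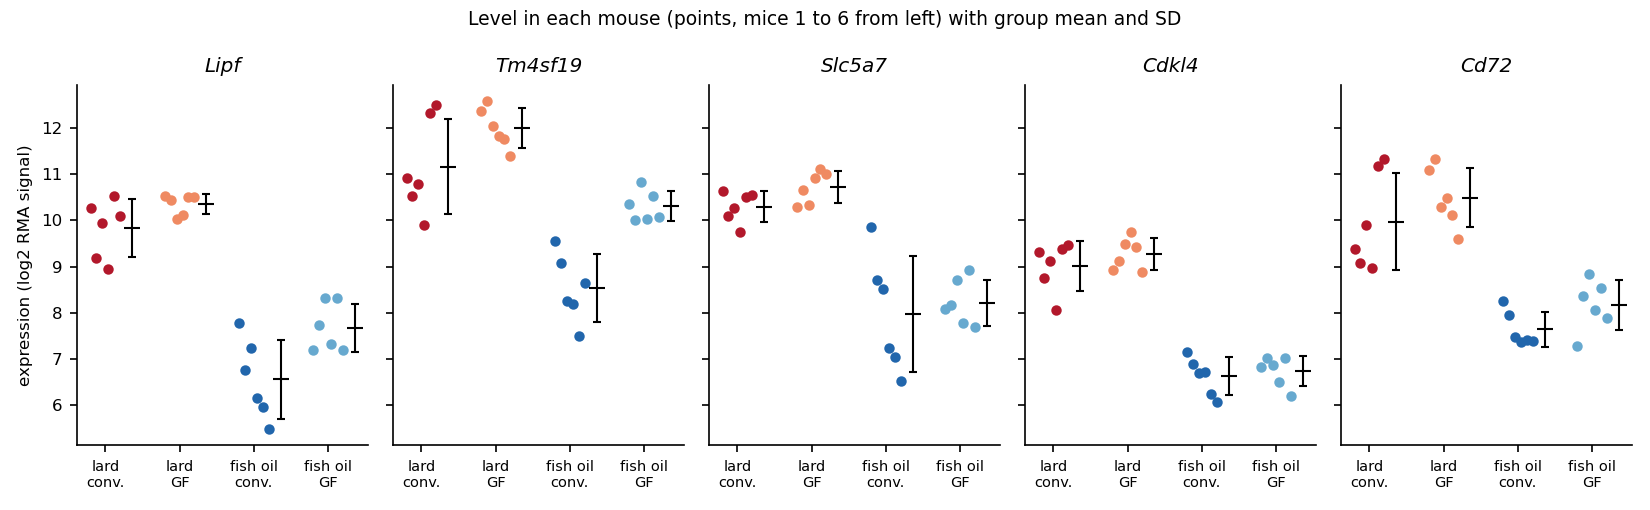
Level of each of the 5 genes (log2 RMA signal, vertical axis) in the 24 mice, 6 points per group, with the group mean and SD as a black bar beside them. The lard-fed groups stand to the left in each panel; Lipf, Cdkl4 and Cd72 have all 12 lard-fed mice above all 12 fish oil-fed mice, and Tm4sf19 and Cd72 have the same pair of high mice, 5 and 6, in the lard-fed conventional group.

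As the genes were picked for this contrast, these counts carry no test. The lard-fed mice of Lipf, Cdkl4 and Cd72, 3 of the 5 genes, lay wholly above the fish oil-fed mice, as did those of 3.16% of all genes. Within conventional mice, all 6 lard-fed mice lay above all 6 fish oil-fed mice for 4 of the 5, against 8.01% of all genes. Within germ-free mice this held for 5 of the 5, against 13.4%. With limma and Benjamini-Hochberg adjustment over all genes, 31.0% of genes passed an adjusted p of 0.05 for diet in conventional mice and 47.5% in germ-free mice, so the diets differed widely in this tissue.

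Bacterial status was not the contrast used to pick the genes, and it asks whether bacteria change the level of these genes within a diet. It does share group means with the diet differences. A low mean in fish oil-fed conventional mice raises the diet difference and lowers the status difference alike. The limma p-values for status and for the interaction are therefore not wholly free of the choice of genes. With fish oil, Tm4sf19 and Lipf were lower in conventional than in germ-free mice, which is 2 of the 5 genes, against 12.4% of all genes called and 5.21% lower in this comparison (3.52% when each array is first centred on its median). Tm4sf19 fell to a mean of 8.54 ± 0.73 in conventional mice, against 10.31 ± 0.32 in germ-free mice (SD, n = 6 each), a difference of -1.77 ± 0.36 (SE; limma, adjusted p = 0.00254). All 6 conventional mice lay below all 6 germ-free mice for Tm4sf19, which held for 1 of the 5 genes and for 3.22% of all genes. Lipf averaged 6.56 ± 0.86 in conventional mice and 7.67 ± 0.53 in germ-free mice (SD, n = 6 each), a difference of -1.11 ± 0.32 (SE; limma, adjusted p = 0.0218), with overlap between the groups. The Lipf call was lost when fish oil-fed conventional mouse 5 or 6 or fish oil-fed germ-free mouse 3 or 5 was left out, with limma adjusted p up to 0.0599 and differences from -1.35 to -0.89 over all single mice left out.

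The other 3 genes did not pass with fish oil. Conventional minus germ-free was -0.24 for Slc5a7 (95% interval -1.02 to 0.53), -0.11 for Cdkl4 (-0.56 to 0.34) and -0.52 for Cd72 (-1.27 to 0.24). In these intervals a halving remains possible for Slc5a7 and Cd72. Beside these genes, 12 of 16 measured lipid-associated macrophage markers were lower and 0 higher in conventional mice fed fish oil, and their mean lay at 10.46 to 11.53 in conventional mice and at 11.60 to 12.01 in germ-free mice, without overlap. With that mean in the fit, a setting chosen after seeing the data, the difference of Tm4sf19 was -0.14 (limma adjusted p = 0.515) and that of Lipf -0.08 (limma adjusted p = 0.899). The same fit turned the sign of the other 3, to 0.76 for Slc5a7 (adjusted p = 0.254), 0.53 for Cdkl4 (adjusted p = 0.15) and 1.02 for Cd72, which then passed (limma adjusted p = 0.00704). With the mean of the general macrophage markers instead, Tm4sf19 kept its call at -1.10 (limma adjusted p = 0.0045) and Lipf did not, at -0.61 (adjusted p = 0.127). With the mean of the liver transcripts in the fit, both differences still passed. They were -2.04 ± 0.59 for Tm4sf19 (SE; limma adjusted p = 0.0368) and -1.83 ± 0.49 for Lipf (SE; limma adjusted p = 0.0254). The liver mean was high in germ-free mice fed fish oil, where its lowest value was 8.53. In conventional mice fed fish oil its highest value was 8.52, so the groups did not overlap. This fit therefore cannot separate liver transcripts from bacterial status, and their part in both differences was not tested. In whole tissue, fewer cells of a type and less RNA per cell cannot be told apart.

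With lard, 0 of the 5 genes passed for bacterial status in limma, against 16.3% of all genes called and 7.48% lower in conventional mice, and 0 of the 5 had all conventional below all germ-free mice, as 1.60% of all genes did. All 5 differences were negative: -0.52 for Lipf, -0.84 for Tm4sf19, -0.42 for Slc5a7, -0.25 for Cdkl4 and -0.52 for Cd72. At an unadjusted p of 0.05, Tm4sf19 was the 1 gene that passed. For Tm4sf19 the mean was 11.16 ± 1.03 in conventional mice and 12.00 ± 0.43 in germ-free mice (SD, n = 6 each), and the limma adjusted p was 0.12. The pair of high conventional mice decided this: without mice 5 and 6 the difference was -1.46 for Tm4sf19 (limma adjusted p = 0.00062) and -1.16 for Cd72 (limma adjusted p = 0.00509). Leaving out a high pair lowers the conventional mean by construction, and the same 2 mice had the highest macrophage marker means of their group.

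**Figure D2:**
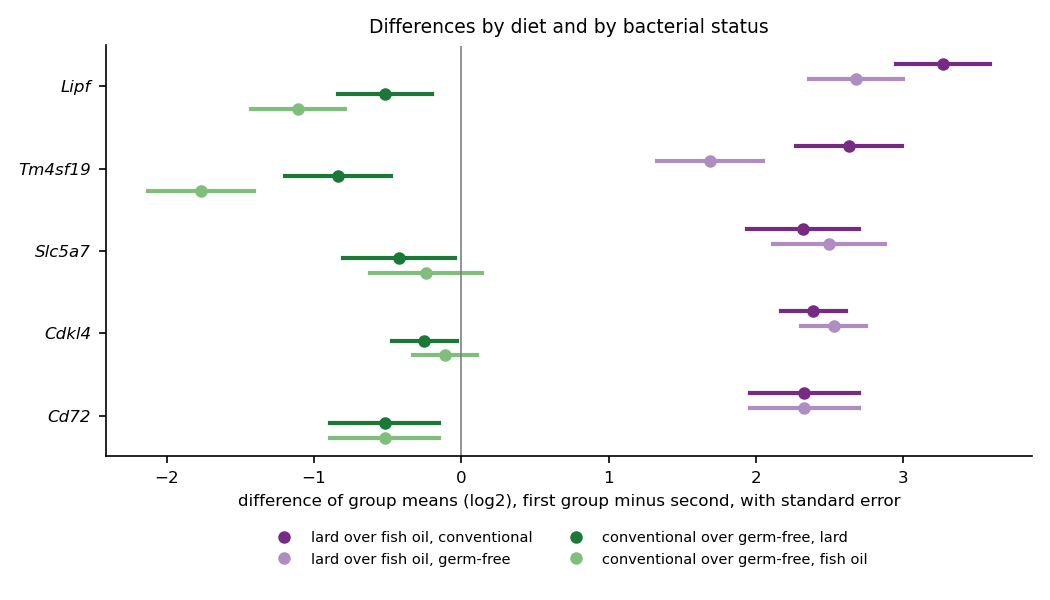
Differences of group means (log2, horizontal axis) with their standard errors for each gene: purple for lard minus fish oil, green for conventional minus germ-free. All 10 diet differences lie at 1.69 or above; all 10 bacterial status differences are below 0, and those of Tm4sf19 and Lipf with fish oil, -1.77 and -1.11, are the 2 that passed limma.

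Whether the diet difference itself depended on bacteria was tested as an interaction, the diet difference in conventional mice minus that in germ-free mice. In limma 0 of the 5 genes passed, against 7.20% of all genes, and 0 of the 5 passed at an unadjusted p of 0.05. The interaction was 0.93 for Tm4sf19 (95% interval -0.12 to 1.98), 0.59 for Lipf (-0.33 to 1.51), 0.00 for Cd72 (-1.07 to 1.07), -0.18 for Slc5a7 (-1.28 to 0.92) and -0.14 for Cdkl4 (-0.78 to 0.50). The intervals include a diet difference 2-fold larger in conventional than in germ-free mice for Tm4sf19, Lipf and Cd72, and 2-fold smaller for Cd72 and Slc5a7. The lipid-associated macrophage mean was also added to the fit, a setting chosen after seeing the data. The interaction of Cd72 was then -0.82 (limma adjusted p = 0.0298). In that setting 2872 of all 19938 genes passed for the interaction, against 1435 without the mean. With the liver mean, the interaction was 1.24 for Tm4sf19 (adjusted p = 0.277) and 1.43 for Lipf (adjusted p = 0.133).

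Mice of the same group were then compared with each other, since these deviations from the group mean did not enter the choice of genes. The 5 genes were set against the means of 5 marker lists over 24 mice, with the group means removed, and the 25 permutation tests within groups were adjusted together. Cd72 followed the mean of 19 macrophage markers closely, with Pearson r = 0.95 and Spearman rho = 0.95 (permutation test, 100000 resamples, adjusted p = 5e-05 and 6e-05; 1e-05 is the smallest raw p these resamples give). Without lard-fed conventional mice 5 and 6, which lay farthest from the median, r was 0.94, and r was 0.99 within lard-fed conventional, 0.98 within lard-fed germ-free, 0.94 within fish oil-fed conventional and 0.95 within fish oil-fed germ-free mice. Cd72 is thus a gene picked as lying outside the known macrophage markers whose level tracked those markers from mouse to mouse in each of the 4 groups.

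Tm4sf19 followed the 16 lipid-associated macrophage markers in the same way. Over 24 mice r was 0.97 and rho 0.87 (permutation test, adjusted p = 5e-05 and 0.0001), and without the 2 mice farthest from the median r was 0.95. Within lard-fed conventional, lard-fed germ-free, fish oil-fed conventional and fish oil-fed germ-free mice r was 0.99, 0.98, 0.95 and 0.89. Both genes were lower in mice whose adipocyte markers were higher: r with the mean of 13 adipocyte markers was -0.90 for Cd72 (rho -0.85) and -0.78 for Tm4sf19 (rho -0.70), with permutation adjusted p = 5e-05 and 0.00011.

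Lipf, Slc5a7 and Cdkl4 had lower correlations with the same marker means, and these varied between groups. With macrophage markers r was 0.67 for Lipf (rho 0.65), 0.47 for Slc5a7 (rho 0.42) and 0.57 for Cdkl4 (rho 0.60), with permutation adjusted p = 0.00214, 0.0137 and 0.0153. Without lard-fed conventional mice 5 and 6, the 2 mice farthest from the median, r was 0.64 for Lipf and 0.50 for Slc5a7, and for Cdkl4 it was 0.46, with a raw permutation p of 0.0336 and an adjusted p of 0.0622 when each list leaves out its own 2 farthest mice, or 0.047 when all 25 tests leave out this pair. Within lard-fed conventional, lard-fed germ-free, fish oil-fed conventional and fish oil-fed germ-free mice r was 0.77, 0.03, 0.74 and 0.90 for Lipf. In the same order it was 0.67, -0.56, 0.84 and 0.72 for Slc5a7 and 0.77, -0.07, 0.70 and 0.58 for Cdkl4. For these 3 genes r was lowest in the lard-fed germ-free mice, but each r rests on 6 mice and differences between groups were not tested. Lipf also varied little in that group, with an SD of 0.22. Tm4sf19 had 0.98, 0.92, 0.69 and 0.49 with the same markers. With lipid-associated macrophage markers r was 0.70 for Lipf (rho 0.67), 0.57 for Slc5a7 (rho 0.51) and 0.63 for Cdkl4 (rho 0.60), and without the 2 farthest mice it was 0.65, 0.43 and 0.52, of which only that of Lipf passed (permutation adjusted p = 0.00545, 0.0733 and 0.0725).

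The mean of 18 cell division genes gave the same order. Its r was 0.87 with Cd72 (rho 0.86), 0.82 with Tm4sf19 (rho 0.71), 0.64 with Lipf (rho 0.67), 0.61 with Cdkl4 (rho 0.55) and 0.48 with Slc5a7 (rho 0.48), with permutation adjusted p from 5e-05 to 0.0178. The r of Slc5a7 and Cdkl4 did not pass without the 2 farthest mice. No relation passed with the mean of 17 B-cell genes, where r was 0.22 for Cd72 (rho 0.30; permutation adjusted p = 0.291) and between -0.07 and 0.09 for the other 4.

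**Figure D3:**
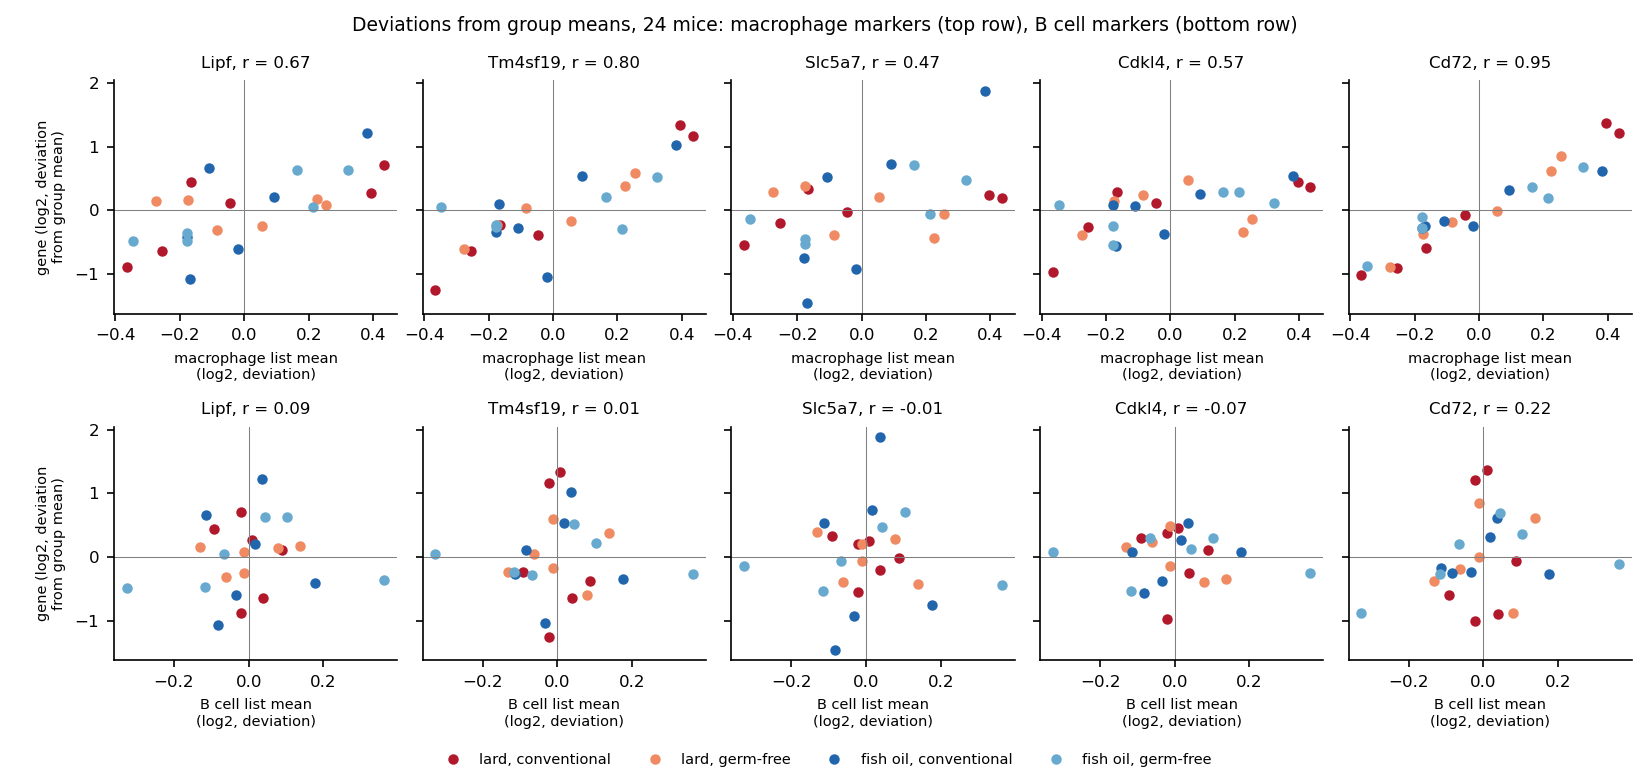
Deviation of each gene from its group mean (log2, vertical axes) against the deviation of a marker list mean (log2, horizontal axes) in 24 mice, coloured by group; the macrophage list is above and the B cell list below. Cd72 lies close to a line against the macrophage markers (r = 0.95), Slc5a7 and Cdkl4 scatter (r = 0.47 and 0.57), and against the B cell markers r lies between -0.07 and 0.22.

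Among themselves, the 5 genes fell into 2 closer pairs when only deviations from group means were used. Lipf and Slc5a7 had r = 0.87, and Tm4sf19 and Cd72 had r = 0.85. Cdkl4 was nearer to Lipf (0.68) and Slc5a7 (0.67) than to Tm4sf19 (0.61) and Cd72 (0.51), and the lowest value was 0.35, between Slc5a7 and Cd72. These are descriptions over 24 arrays, and the difference between the pairs was not tested.

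Of all 19938 genes, those most like each gene by their deviations over the 24 arrays were taken, 3 for each. For Lipf they were Krt79 (r = 0.87), Slc5a7 (0.87) and Ddah1 (0.86), and for Slc5a7 they were Col12a1 (0.90), Pde7b (0.88) and Lipf (0.87). For Cdkl4 they were Ddah1 (0.79), Gtf2f1 (0.76) and Arfgap3 (0.75). For Tm4sf19 they were Il7r (0.98), Nceh1 (0.97) and Atp6v0d2 (0.97), and for Cd72 they were Basp1, Inpp5d and Lair1, each at 0.97. Slc5a7 was thus among the 3 nearest genes of Lipf, and Lipf among those of Slc5a7. When the values themselves were used over 24 arrays, so that the diet difference entered, Ddah1 was among the 3 nearest genes of Lipf (0.98), Slc5a7 (0.96) and Cdkl4 (0.97), the nearest of Tm4sf19 was Il7r (0.99) and the nearest of Cd72 was P2ry6 (0.99).

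How far the diet differences went with macrophage markers was measured by adding a marker mean to the fit, a setting chosen after seeing the data. With the mean of the macrophage markers, the diet difference of Cd72 was 0.19 ± 0.18 in conventional mice and 0.66 ± 0.16 in germ-free mice (SE), against 2.33 in both without it. With the lipid-associated macrophage mean, that of Tm4sf19 was 0.44 ± 0.16 in conventional mice and 0.38 ± 0.12 in germ-free mice, against 2.63 and 1.69 without it. With the macrophage mean, the diet difference was 1.97 in conventional and 1.67 in germ-free mice for Lipf, 1.25 and 1.66 for Slc5a7, and 1.64 and 1.94 for Cdkl4. For Tm4sf19 it was 0.87 and 0.32 with that mean. With the lipid-associated macrophage mean it was 0.27 and 1.09 for Cd72 and 1.88 and 1.85 for Lipf. In the same fit it was 0.97 and 1.69 for Slc5a7, and 1.53 and 2.02 for Cdkl4. For Slc5a7 in conventional mice the SE was 0.50 in this fit and 0.53 with the macrophage mean. The marker means differ between the diets themselves, at 10.32 to 11.12 in lard-fed conventional mice against 9.66 to 10.22 in fish oil-fed conventional mice for macrophages, so the fit divides a shared difference and does not assign it.

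**Figure D4:**
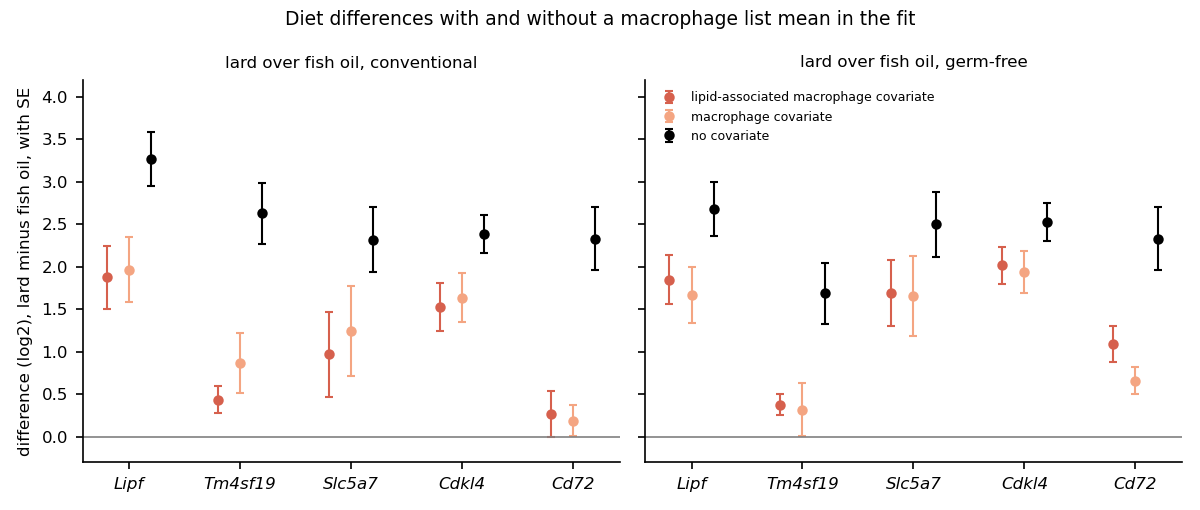
Difference between lard and fish oil (log2, vertical axis, with SE) for the 5 genes in conventional mice (left) and germ-free mice (right), with the lipid-associated macrophage mean, the macrophage mean or no marker mean in the fit. Cd72 and Tm4sf19 come to between 0.19 and 1.09 with a marker mean, and Lipf, Slc5a7 and Cdkl4 to between 0.97 and 2.02. These ranges overlap. In conventional mice Slc5a7 comes from 2.32 to 0.97 ± 0.50 and 1.25 ± 0.53 (SE) with the lipid-associated macrophage and macrophage means.

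The relatives and working partners of each gene were counted next, by limma with adjustment over all genes. The lists hold genes of the same family or pathway and markers of the tissue in which the gene is best known. Counts are given as higher and lower with lard, first in conventional and then in germ-free mice, and the median difference of all genes was -0.04 and -0.08. Of all genes, 15.4% were higher and 15.6% lower in conventional mice, and 20.4% were higher and 27.1% lower in germ-free mice (24.1% and 16.6% when each array is first centred on its median).

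The acid lipases are the closest relatives of Lipf. Of 5 measured, 1 rose and 0 fell with lard in conventional mice, and 3 rose and 0 fell in germ-free mice, with medians of 0.04 and 0.33. The 1 that rose in both was Lipa, the lysosomal acid lipase that hydrolyses cholesteryl esters and triglycerides, by 1.26 (adjusted p = 9.7e-06) and 1.05 (adjusted p = 5.6e-05). Lipk, Lipn and Lipm, which lie next to Lipf on the chromosome, differed by -0.05, 0.28 and -0.01 in conventional mice and by 0.01, 0.33 and 0.02 in germ-free mice, where Lipn passed (adjusted p = 0.0185). Lipo3, on the other side of Lipf, differed by 0.04 (adjusted p = 0.813) in conventional mice and rose by 0.37 (adjusted p = 0.00724) in germ-free mice. Among 14 other lipases 2 rose and 4 fell under each bacterial state. Daglb, which makes 2-arachidonoylglycerol from diacylglycerol, rose by 1.11 and 1.46, and the triglyceride hydrolase Ces1d fell (differences of -1.59 and -1.32).

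No measured stomach marker rose with lard. Of 15 measured stomach markers 0 rose and 2 fell in conventional mice, and 0 rose and 7 fell in germ-free mice. Pgc, the pepsinogen C precursor of gastric chief cells, differed by -0.02 (adjusted p = 0.917) and -0.29 (adjusted p = 0.0193), and Atp4b, a subunit of the gastric proton pump, fell (differences of -0.41 and -0.37). The mean of the stomach markers lay between 6.19 and 6.60 over all 24 arrays.

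For Tm4sf19, its own family and the genes of osteoclasts and cell fusion were counted. Of 4 other L6 family genes 0 rose and 0 fell in conventional mice, and 0 rose and 1 fell in germ-free mice; the 1 was Tm4sf1, which fell by 0.33 and did not pass with centring. The medians of these 4 were 0.15 and 0.27, and with the liver mean in the fit 2 of the 4 rose and 1 fell in germ-free mice. Tm4sf4 and Tm4sf5 varied widely in lard-fed germ-free mice, with SDs of 1.23 and 1.28, in the group with the 1 mouse high in intestinal transcripts. Of 17 osteoclast and cell fusion genes, 9 rose and 1 fell in conventional mice and 7 rose and 4 fell in germ-free mice, with medians of 0.35 and 0.33. Atp6v0d2, which forms part of the lysosomal proton pump and is also among the lipid-associated macrophage markers, rose by 2.03 and 1.31, and Dcstamp, needed for the fusion of osteoclasts and of macrophages, rose by 1.05 and 1.50. Ctsk, the collagen-degrading protease of osteoclasts, rose by 1.37 in conventional mice and differed by 0.59 (adjusted p = 0.137) in germ-free mice. Acp5, the tartrate-resistant phosphatase used to stain osteoclasts, fell (differences of -0.50 and -0.26).

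The other measured genes of acetylcholine handling did not rise with lard. Of 16 cholinergic genes 0 rose and 4 fell in conventional mice, and 0 rose and 6 fell in germ-free mice (1 rose and 4 fell there when each array is centred on its median). Chat, which makes acetylcholine from choline, differed by -0.09 (adjusted p = 0.483) and -0.19 (adjusted p = 0.0977), and Slc18a3, which loads it into vesicles, by -0.09 (adjusted p = 0.399) and -0.22 (adjusted p = 0.0199). Bche, an esterase that splits choline esters, fell (differences of -1.35 and -0.92). Of 12 neuronal markers 1 rose and 0 fell, and 1 rose and 3 fell. Of 12 relatives in the SLC5 family of sodium-coupled carriers 0 rose and 3 fell under each bacterial state (1 rose and 1 fell in germ-free mice with centring), the farthest being the vitamin carrier Slc5a6, which fell (differences of -0.82 and -0.65).

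Genes of choline use and phosphatidylcholine synthesis moved both ways. Of 20 measured, 7 rose and 6 fell in conventional mice, and 10 rose and 6 fell in germ-free mice. Flvcr1, a carrier of choline, rose by 0.69 and 0.71, and Lpcat2, which rebuilds phosphatidylcholine from its lyso form, rose by 0.47 and 0.96. Chdh, which oxidises choline, fell under both states (adjusted p = 2.5e-05 and 0.00141), the choline carrier-like Slc44a3 fell (differences of -1.27 and -0.87), and Pemt, which makes phosphatidylcholine by methylation, fell (differences of -0.41 and -0.72). Chka, the kinase of the first step that commits choline to phosphatidylcholine, differed by 0.16 (adjusted p = 0.188) and 0.21 (adjusted p = 0.0498).

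Most relatives of Cdkl4 did not pass. Of 6 measured related kinases 0 rose and 0 fell in conventional mice, and 1 rose and 1 fell in germ-free mice (with centring, 0 rose and 1 fell in conventional, and 1 rose and 0 fell in germ-free mice). Cdkl1, Cdkl2 and Cdkl3 differed by 0.08, -0.27 and -0.15 in conventional mice and by -0.01, 0.00 and -0.06 in germ-free mice, and none of these 6 differences passed. In contrast, 18 of 18 cell division genes rose with lard under each bacterial state, with medians of 1.19 and 1.11. The proliferation marker Mki67 rose by 1.29 and 1.58, and Bub1, a kinase of the spindle checkpoint, by 1.61 and 1.73.

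The company of Cd72 differed between B-cell genes and a list of its ligand, its phosphatase and other inhibitory receptors. Of 17 B-cell genes 5 rose and 0 fell in conventional mice, and 3 rose and 6 fell in germ-free mice, with medians of -0.02 and -0.22. Cd79a, a chain of the B-cell receptor, differed by -0.08 (adjusted p = 0.838) and fell by 0.69 (adjusted p = 0.019), and Ms4a1, the B-cell antigen CD20, differed by -0.02 (adjusted p = 0.951) and -0.26 (adjusted p = 0.157). The B-cell genes that rose by over 1 under both states were Blnk, an adaptor of receptor signalling, by 1.90 and 1.33, and the tetraspanin Cd37, by 1.21 and 1.15, both of which are also expressed in myeloid cells. The mean of the B-cell genes lay between 6.77 and 7.46 over all 24 arrays.

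Of 15 genes for the ligand and phosphatase of Cd72 and for other receptors with an inhibitory motif, 13 rose and 0 fell in conventional mice, and 12 rose and 1 fell in germ-free mice, with medians of 0.89 and 0.68. Sema4d, its ligand, rose by 1.16 under both states (adjusted p = 0.00075 and 0.00058), and Ptpn6, which encodes SHP-1, by 0.84 and 0.68. The inhibitory lectin receptor Clec4a2 rose by 2.01 and 1.69, and Cd200r1, a receptor that restrains myeloid cells, by 1.78 and 1.67. Macrophage markers moved beside them: 17 of 19 rose and 1 fell in conventional mice, and 13 rose and 2 fell in germ-free mice. Of 16 lipid-associated macrophage markers 15 rose in conventional and 10 in germ-free mice, and 0 fell under either state. Adgre1, the F4/80 antigen, rose by 1.37 and 1.76, Trem2 by 2.01 and 1.14, and Nceh1, a hydrolase of cholesteryl esters, by 2.21 and 1.76.

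**Figure D5:**
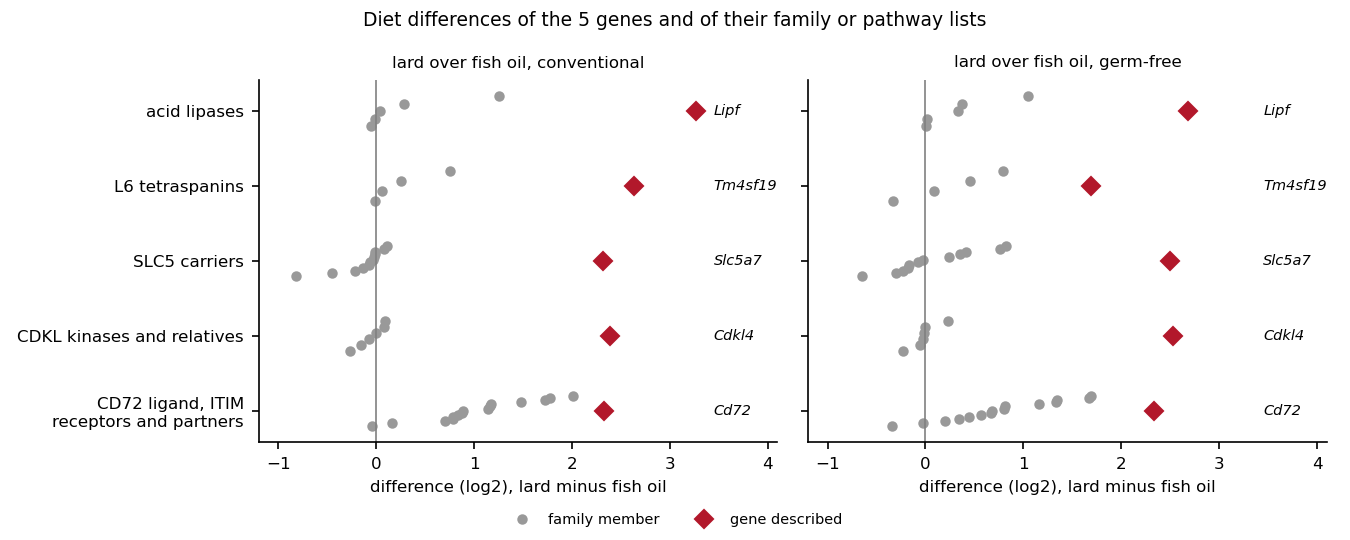
Difference between lard and fish oil (log2, horizontal axes) of each of the 5 genes (red diamonds) and of the measured genes listed beside it (grey points). Conventional mice are on the left and germ-free mice on the right. Lipf, Tm4sf19, Slc5a7 and Cdkl4 lie to the right of every listed relative, which their choice for a large diet difference made likely. The list of Cd72 holds its ligand, its phosphatase and other inhibitory receptors. Most of these lie above 0, with Clec4a2 at 2.01 and 1.69 beside Cd72 at 2.33.

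The germ-free counts changed with how the samples high in liver or intestinal transcripts were treated, and so did the calls over all genes. Over all genes, germ-free diet calls fell from 9468 to 5719 with the liver mean. They fell to 5278 without lard-fed germ-free mice 2, 4 and 5. With the liver mean in the fit, 4 of 19 macrophage and 4 of 16 lipid-associated macrophage genes passed in germ-free mice in either direction. So did 5 of 15 genes of the Cd72 ligand and inhibitory receptor list and 4 of 17 osteoclast genes. Of 18 cell division genes 13 rose, and of 17 B-cell genes 1 rose and 8 fell. The liver mean was high mainly in fish oil-fed germ-free mice, so this fit also widens standard errors. For the germ-free diet difference of Lipf the SE was 0.51, against 0.32 without the liver mean. How far the lower counts come from this loss of precision was not tested. Without lard-fed germ-free mice 2, 4 and 5, which had the highest intestinal means, 11 macrophage and 7 lipid-associated macrophage genes rose. So did 9 genes of the Cd72 ligand and inhibitory receptor list and 16 cell division genes. Without those mice 1 of 5 acid lipases, 3 of 15 stomach genes, 1 of 16 cholinergic genes, 3 of 17 B-cell genes and 0 of 6 related kinases passed in either direction. Leaving out mice also widened standard errors, to 0.41 for the germ-free diet difference of Lipf. What part of the lower counts comes from having fewer mice was not tested.

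The chromosomal neighbours of the 5 genes had smaller diet differences. The 5 were picked for large diet differences, so almost any other genes would fall short of them, and their values are given as description only. For the 3 nearest measured genes on each side of each gene, 30 in all, the difference between lard and fish oil lay between -0.73 and 0.52 in conventional mice and between -0.87 and 0.59 in germ-free mice. The highest under both states was Slc8a1, a sodium-calcium exchanger beside Cdkl4, which rose by 0.52 and 0.59. Sgo1, which guards the cohesion of sister chromatids and lies beside Slc5a7, rose by 0.50 and 0.53. Papss2, which makes the sulfate donor of the cell and lies beside Lipf, differed by -0.27 (adjusted p = 0.108) in conventional mice and rose by 0.55 (adjusted p = 0.0012) in germ-free mice. The lowest was Morn2, also beside Cdkl4, which fell (differences of -0.73 and -0.87). Pcyt1a, the rate-setting enzyme of phosphatidylcholine synthesis, lies beside Tm4sf19 and differed by 0.17 (adjusted p = 0.23) and 0.09 (adjusted p = 0.449).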

How the data were processed

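The authors deposited log2 signals summarised by RMA, as named in the submitters' processing notes, a method with background correction, quantile normalisation across arrays and probe summary. The RMA version is not given in the sources used here, nor are scan dates, so no batch could be tested, and nothing beyond the mouse number says how mice were housed. Probe sets were named through the platform's annotation and updated by Entrez ID in a RefSeq table (GRCm38.p6): of 35556 probe sets, 21789 had 1 symbol, 1621 several and 12146 none, and 19938 genes were kept, each by the probe set with the highest mean.

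A fit of 4 group means to 24 arrays was made with limma 3.58.1 under R 4.3.3, two-sided, with Benjamini-Hochberg adjustment over all genes and a threshold of 0.05, and was tested on simulated data. Correlations used deviations from group means with 100000 permutations within groups. Python 3.11.15, numpy 2.4.6, pandas 2.3.3, scipy 1.17.1 and matplotlib 3.10.9 were used. Precision is limited by having 6 arrays per group.

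The genes and the 21 gene lists were chosen with earlier results of these data known. Named genes are the 5, up to 4 per list past the threshold with the largest diet difference, a fixed set of defining genes, the 3 most alike per measure and 3 neighbours on each side. Alternatives covered centring, repeated quantile normalisation, a filter on genes under the 40th percentile, probe set choice, array weights, moderated variance, a replicate block, covariates and left-out mice.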

Additional observations from a re-analysis of the deposited data

Results flagged for a closer look

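None of the 20 group values of the 5 genes held a mouse far from the other 5, but 3 of 28 groups of marker list means did, where chance gives about 1 in 20. The adipocyte mean of fish oil-fed conventional mouse 1 was 12.99, against 13.06 to 13.09 in the other 5 mice of its group; this was also the mouse with the highest Lipf (7.78), Tm4sf19 (9.56), Slc5a7 (9.86), Cdkl4 (7.16) and Cd72 (8.26) of that group. The liver mean of fish oil-fed conventional mouse 6 was 8.52, against at most 7.39 in the others, and the intestinal mean of lard-fed germ-free mouse 4 was 9.72, against 5.64 to 6.59.

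Of 108 named genes tested for an interaction, 4 passed limma, and none of the 4 was among the 5. Over all 19938 genes, 7.20% passed. The interaction was 0.57 for Tm4sf1, an L6 family relative of Tm4sf19 (adjusted p = 0.0431), -0.42 for the choline carrier-like Slc44a1 (adjusted p = 0.00303), -0.82 for Papss2, a sulphate donor synthase beside Lipf (adjusted p = 0.00791), and -0.32 for Sos1, a Ras activator beside Cdkl4 (adjusted p = 0.0334). Slc44a1 differed between lard and fish oil by -0.05 in conventional mice and rose by 0.37 in germ-free mice, and Papss2 by -0.27 and 0.55.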

How the results depend on the processing

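The diet differences kept their sign in every setting tried, and 117 of 140 alternative values lay within 1 SD of the spread between mice. Those that moved more were set by a covariate. With the macrophage mean, conventional and germ-free diet differences were 1.97 and 1.67 for Lipf, 0.87 and 0.32 for Tm4sf19, 1.25 and 1.66 for Slc5a7, 1.64 and 1.94 for Cdkl4 and 0.19 and 0.66 for Cd72. With the lipid-associated macrophage mean they were 1.88 and 1.85, 0.44 and 0.38, 0.97 and 1.69, 1.53 and 2.02, and 0.27 and 1.09. With the liver mean, germ-free differences were 1.93 for Lipf, 1.75 for Slc5a7 and 1.69 for Cd72.

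For bacterial status with fish oil, the macrophage mean gave -0.61 for Lipf, 0.17 for Slc5a7, 0.18 for Cdkl4 and 0.31 for Cd72, and the lipid-associated mean gave -0.08, 0.76, 0.53 and 1.02 (the last with limma adjusted p = 0.00704) and -0.14 for Tm4sf19. With lard, the lipid-associated mean gave 0.04 for Slc5a7, 0.05 for Cdkl4 and 0.19 for Cd72. Tm4sf19 with lard passed with array weights (-1.10) and without lard-fed conventional mice 5 and 6 (-1.46), and Cd72 without them (-1.16). The interaction of Cd72, 0.00, became -0.09 with centring, -0.23 with array weights, -0.64 without those mice, and -0.47 and -0.82 with the macrophage means; that of Slc5a7 became 0.65 and that of Cdkl4 0.07 with the liver mean, and that of Cdkl4 0.03 without germ-free mice 2, 4 and 5 of the lard diet. The cause was not tested.

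Leaving out single mice gave -1.35 to -0.89 for Lipf with fish oil and -1.11 to -0.59 for Tm4sf19 with lard, where it passed without lard-fed conventional mouse 5 or 6. It gave -0.62 to 0.05 for Slc5a7 and -0.22 to 0.00 for Cdkl4 with fish oil. Interactions ranged from -0.47 to 0.20 for Slc5a7, from -0.25 to 0.06 for Cdkl4 and from -0.27 to 0.20 for Cd72, and the count of genes with an interaction from 861 to 2070.

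Genes called for bacterial status with lard numbered 3240, against 5053 with all probe sets, 5033 with array weights, 5079 without lard-fed conventional mice 5 and 6 and 177 without germ-free mice 2, 4 and 5 of the lard diet. With fish oil they numbered 2464, against 1616 with the liver mean. Interactions numbered 1435, against 2526 with array weights, 2710 and 225 without those mice, and 2445 and 2872 with the macrophage means. Diet calls in conventional mice numbered 6178, against 909 and 735 with these means, and in germ-free mice 9468, against 14835 with all probe sets, 5278 without germ-free mice 2, 4 and 5 of the lard diet, 5719 with the liver mean and 2974 and 4318 with the macrophage means. More rows or fewer mice were tested in the probe set and left-out settings. With centring, germ-free diet calls split into 4808 higher and 3313 lower, against 4072 and 5396, conventional ones into 2756 and 3769, against 3076 and 3102, fish oil status calls into 2757 and 701, against 1425 and 1039, lard status calls into 1428 and 1666, against 1749 and 1491, and interactions into 312 and 1688, against 561 and 874.

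Without the 2 farthest mice, r with the adipocyte mean was -0.26 for Lipf, that of Slc5a7 was 0.43 with the lipid-associated, 0.49 with the cell division and 0.08 with the B-cell mean, and that of Cdkl4 was 0.46 with the macrophage, 0.52 with the lipid-associated, 0.47 with the cell division and 0.06 with the B-cell mean.

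Mouse numbers are shared between groups, but same-numbered mice did not deviate together: over 36 pairs the correlation lay between -0.497 and 0.351, above 0.1 in 9. With the mouse number as a replicate block, no call of the 5 genes changed: bacterial status with fish oil was -1.77 for Tm4sf19 (limma adjusted p = 0.00524) and -1.11 for Lipf (0.0204), and 2294 genes passed. Signals near the lowest values are compressed, which limits small differences of weak genes.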

Other observations

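Marker lists of other cell types that the tissue could hold were counted beside the 5 genes, by limma with adjustment over all genes. Of 13 adipocyte markers 1 rose and 10 fell with lard in conventional mice, and 2 rose and 7 fell in germ-free mice; without lard-fed conventional mice 5 and 6, 7 passed in conventional mice in either direction. Adipoq, the adipocyte hormone adiponectin, had differences of -0.46 and -0.47. Of 10 mesothelial markers 0 rose and 8 fell in conventional mice, and 0 rose and 7 fell in germ-free mice, and of 10 T-cell markers 0 rose in either and 1 fell in germ-free mice.

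Of 17 liver transcripts 2 rose and 1 fell with lard in conventional mice, and 0 rose and 15 fell in germ-free mice, where the fish oil group had the high liver mean. In that group 13 of 17 were lower in conventional than in germ-free mice fed fish oil. Of 9 epididymis markers 0 rose, with 1 lower in conventional and 2 lower in germ-free mice, and of 14 intestinal markers 1 fell in conventional and 2 rose in germ-free mice. The part of these tissues in the levels of the 5 genes was not tested beyond the settings given above.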
